A study of Mus musculus with 6 samples.

Results

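Fgf5, Otx2, Pou3f1, Foxd3, Lef1, Sall2, Zic2 and Zic5 are 8 mouse genes known to be expressed as pluripotent cells leave the naive state for the formative and primed states. They were chosen as a list of names for that known expression, with earlier results of these data already known. They were found by symbol among the 37620 Ensembl genes counted in each library. All 8 were in the tables and all 8 passed the filter on low counts, which left 17489 genes to test. Naive pluripotency is the state of the pre-implantation epiblast and is held in culture by LIF and factors such as Nanog, Esrrb and Klf2. Cells that leave it lose those factors, keep Pou5f1, and turn on the FGF ligand Fgf5 and the transcription factors Otx2 and Pou3f1, which mark the epiblast around implantation. Several of the 8, among them Otx2, Zic2 and Sall2, also act later in the developing nervous system.

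RNA was sequenced in 6 libraries, 2 per group. The Phc1-KO libraries carry the genotype Phc1-/- and came from J1 embryonic stem cells; Phc1 encodes a Polyhomeotic subunit of Polycomb repressive complex 1. The NPC libraries are wild-type neural progenitor cells derived in culture from the same J1 line, and the ESC libraries are wild-type J1 cells. Stem cells were grown with LIF and serum on mitomycin-C inactivated fibroblast feeders, which were removed before use. How many knock-out clones there were, and which part of Phc1 was deleted, is not given in the sources used here.

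Gene counts summed to 15226214 at the least and 21893821 at the most in a library. The 2 libraries of each group are labelled biological replicates with no word on separate cultures, so p-values measure the spread between these libraries. The spread beyond counting noise was 18.1% for the Phc1-KO pair, 27.5% for the NPC pair and 1.98% for the ESC pair. The series title calls the Phc1-KO cells ESC, whereas their cell type entry reads NPC. Summed over 8 ESC markers, the Phc1-KO libraries held 2403.1 and 2716.5 CPM (counts scaled to a common library size), the NPC libraries 7.83 and 8.25 CPM, and the ESC libraries 2365.5 and 2365.6 CPM. Phc1 itself was measured at 326.3 and 267.5 CPM in Phc1-KO, 40.8 and 34.6 CPM in NPC, and 459.7 and 460.5 CPM in ESC. Its level in Phc1-KO was lower than in ESC, with a log2 fold change of -0.63 (SE 0.15, edgeR adjusted p = 0.0412), and reads outside the deleted part do not check the deletion. The call did not hold without Phc1-KO 2 (edgeR adjusted p = 0.135), ESC 1 (0.316) or ESC 2 (0.304).

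The start regions of Fgf5, Foxd3 and Zic5 are shown first, because these members have a single start in the RefSeq promoter table. Each sequence is the 250 bases before the start on the gene's own strand, from RefSeq on GRCm38.p6, a later build than the mm9 of the counts. Capitals mark CG dinucleotides, the sites of DNA methylation and a feature of many promoters bound by Polycomb complexes. Fgf5 lies at chr5:98253934-98254183 on the plus strand, Foxd3 at chr4:99656049-99656298 on the plus strand, and Zic5 at chr14:122465659-122465908 on the minus strand.
Fgf5: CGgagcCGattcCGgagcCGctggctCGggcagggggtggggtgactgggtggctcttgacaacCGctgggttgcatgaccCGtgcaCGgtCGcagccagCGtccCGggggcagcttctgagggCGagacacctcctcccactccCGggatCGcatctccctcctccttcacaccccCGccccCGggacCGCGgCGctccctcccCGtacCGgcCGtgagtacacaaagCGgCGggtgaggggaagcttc
Foxd3: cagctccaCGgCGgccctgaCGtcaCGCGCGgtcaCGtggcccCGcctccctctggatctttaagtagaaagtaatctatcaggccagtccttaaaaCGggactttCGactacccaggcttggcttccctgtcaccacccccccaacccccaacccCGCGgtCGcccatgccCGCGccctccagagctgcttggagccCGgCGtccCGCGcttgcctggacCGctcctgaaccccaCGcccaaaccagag
Zic5: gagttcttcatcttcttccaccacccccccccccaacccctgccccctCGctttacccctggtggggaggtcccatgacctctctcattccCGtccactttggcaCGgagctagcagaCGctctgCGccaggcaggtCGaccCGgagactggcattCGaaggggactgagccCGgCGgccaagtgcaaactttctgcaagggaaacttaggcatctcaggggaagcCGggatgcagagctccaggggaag
The Fgf5 window held 24 CG dinucleotides, more than 88% of the 32851 promoter windows of that length in the table. In the Foxd3 window there were 21, more than 83.7% of all windows, and in the Zic5 window 11, more than 64.4%. The median over all windows was 6. Their GC contents were 70.8% for Fgf5, 65.6% for Foxd3 and 62.4% for Zic5, against a median of 52.4%. RefSeq starts were available for 6 members, in 13 windows, and not used here for Pou3f1 and Zic2. The members with several starts were not all rich in CG: the Otx2 windows held 6 to 14 CG dinucleotides, those of Lef1 5 to 14, and those of Sall2 0 and 6. The TCF/LEF core CTTTGA, searched on both strands, occurred in 1 of the 13 windows, that of a Lef1 start, and in 13.8% of all windows. The OTX core TAATCC occurred in 1 of the 13, that of an Otx2 start, and in 6.25% of all windows. The octamer ATGCAAAT was in 0 of the 13 and in 1.6% of all windows. These matches describe the letters and do not show binding.

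Fgf5 encodes a secreted FGF ligand of the post-implantation epiblast (ENSMUSG00000029337; mm9 chr5:98683203-98706049, plus strand). It was measured at 13.4 and 16.8 CPM in Phc1-KO, 0.460 and 0.455 CPM in NPC, and 16.6 and 17.6 CPM in ESC. Both NPC libraries were far below the other 4, and the Phc1-KO and ESC libraries overlapped. The log2 fold change of NPC over ESC was -5.20 (SE 0.28, edgeR adjusted p = 2.11e-05). For Phc1-KO over ESC it was -0.18 (SE 0.20, edgeR adjusted p = 0.599), with a 95% interval of -0.65 to 0.30 that excludes a change of 2-fold either way. For Phc1-KO over NPC it was 5.02 (SE 0.28, edgeR adjusted p = 2.28e-05). In bulk RNA such as this, fewer cells expressing a gene and less RNA per cell cannot be told apart.

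**Figure D1:**
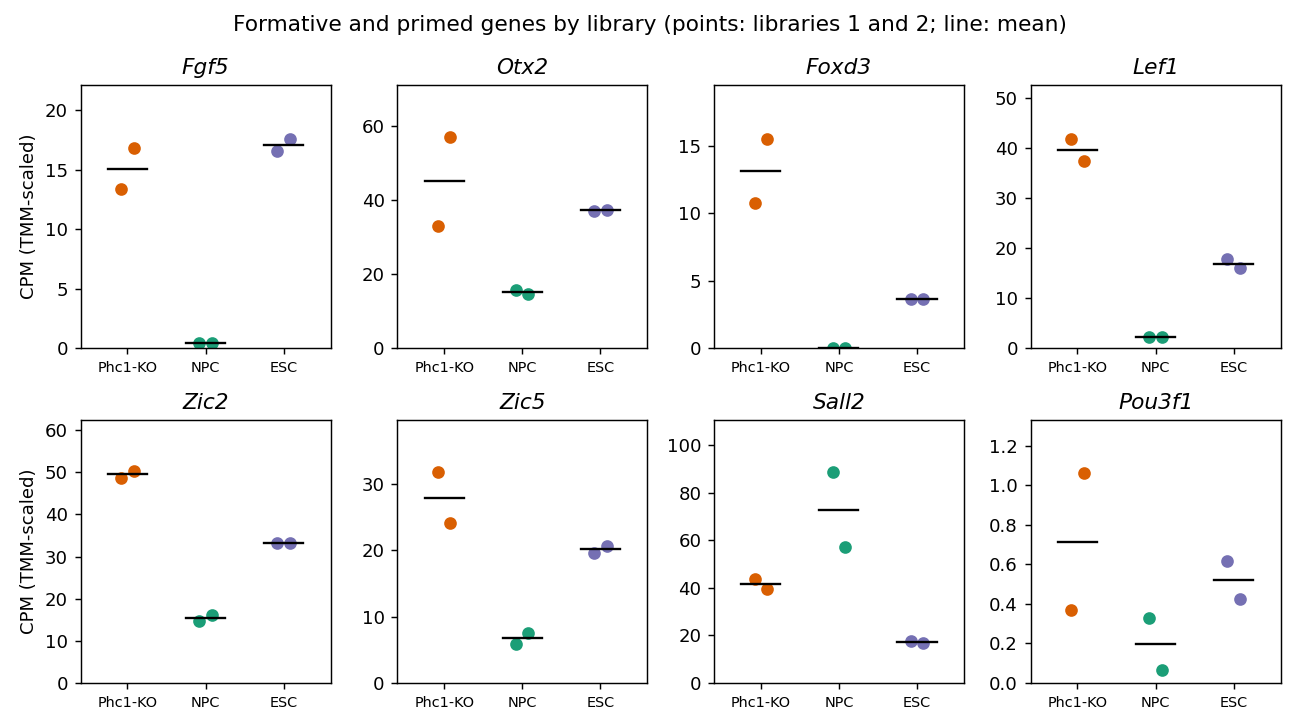
CPM of each of the 8 genes, scaled by TMM, in the 2 Phc1-KO, 2 NPC and 2 ESC libraries, with 1 point per library and a line at the group mean; each panel has its own axis starting at 0. Sall2 was highest in NPC at 88.6 and 57.0 CPM, whereas Foxd3 had 0 counts there and Fgf5 0.460 and 0.455 CPM.

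Otx2 encodes a homeodomain factor that directs enhancers at the onset of the formative state and later patterns the forebrain and midbrain (ENSMUSG00000021848; mm9 chr14:49277354-49287319, minus strand). Its values were 33.0 and 57.1 CPM in Phc1-KO, 15.8 and 14.7 CPM in NPC, and 37.0 and 37.4 CPM in ESC. The Phc1-KO libraries fell on either side of the ESC pair, and the NPC libraries were below all others. NPC over ESC gave a log2 fold change of -1.29 (SE 0.26, edgeR adjusted p = 0.00460). Phc1-KO over ESC gave 0.28 (SE 0.25, edgeR adjusted p = 0.510), which became 0.62 without Phc1-KO 1 and -0.17 without Phc1-KO 2. Against NPC, Otx2 was higher in Phc1-KO by a log2 fold change of 1.56 (SE 0.26, edgeR adjusted p = 0.00177).

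Foxd3 encodes a forkhead factor needed for the epiblast and for the neural crest (ENSMUSG00000067261; mm9 chr4:99322990-99325362, plus strand). Its raw counts were 207 and 321 in Phc1-KO, 0 and 0 in NPC, and 59 and 60 in ESC, or 10.8 and 15.5 CPM in Phc1-KO and 3.64 and 3.65 CPM in ESC. Every Phc1-KO library was above every ESC library, and no read was counted in NPC. In Phc1-KO it was 3.61-fold higher than in ESC, a log2 fold change of 1.85 (SE 0.29, 95% interval 1.15 to 2.56, edgeR adjusted p = 0.0180). Taking a floor of 3 counts over both NPC libraries, Foxd3 was at least 135.5-fold higher in Phc1-KO than in NPC and at least 37.2-fold lower in NPC than in ESC. The call against ESC did not hold without Phc1-KO 2 (edgeR adjusted p = 0.102), without ESC 1 (0.171) or without ESC 2 (0.168).

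Foxd3 also serves as a marker of neural crest, and the other 6 markers of that list were examined beside it. None of the 6 passed the edgeR test for Phc1-KO over ESC, with 1 of them higher at an unadjusted p under 0.05 and 0 by DESeq2. Of all 7 crest markers, Foxd3 included, 1 was higher in that fit, where 858 of all genes tested (4.91%) were. In a fit of the Phc1-KO and ESC libraries alone it was 3, where 1791 of all genes were. The number also rose without either NPC library, as did that over all genes. Without ESC 1, ESC 2 or Phc1-KO 2 the calls were lost. Sox10, the defining factor of crest cells, was at 0.419 and 0.871 CPM in Phc1-KO, 0.263 and 0 CPM in NPC, and 0.617 and 0.487 CPM in ESC. Summed over all 7 crest markers, Foxd3 included, the level was 56.5 and 57.8 CPM in Phc1-KO, 216.9 and 294.3 CPM in NPC, and 39.2 and 38.7 CPM in ESC. The largest part of that sum was Ets1, at means of 26.0 CPM in Phc1-KO, 179.7 CPM in NPC and 23.9 CPM in ESC. Foxd3 itself averaged 13.2 CPM in Phc1-KO and 3.64 CPM in ESC, so the sum does not measure the other markers apart from it. Gm12688, a processed transcript that starts 1316 bp from Foxd3 on the opposite strand, was at 3.25 and 3.97 CPM in Phc1-KO, 0 in both NPC libraries, and 1.73 and 1.34 CPM in ESC. Its pairs did not overlap, with a log2 fold change of 1.23 for Phc1-KO over ESC (SE 0.32, edgeR adjusted p = 0.0636). Against the floor it was at least 36.9-fold higher in Phc1-KO than in NPC.

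Lef1 encodes an HMG-box factor that binds DNA with beta-catenin and carries Wnt signals (ENSMUSG00000027985; mm9 chr3:130813389-130927274, plus strand). It was measured at 41.8 and 37.3 CPM in Phc1-KO, 2.30 and 2.27 CPM in NPC, and 17.8 and 15.9 CPM in ESC. No library of one group reached another group's range. Lef1 was 2.35-fold higher in Phc1-KO than in ESC, a log2 fold change of 1.23 (SE 0.17, 95% interval 0.84 to 1.63, edgeR adjusted p = 0.00979). In NPC it was lower than in ESC by a log2 fold change of -2.87 (SE 0.20, edgeR adjusted p = 4.77e-05). Phc1-KO over NPC gave 4.11 (SE 0.20, edgeR adjusted p = 1.46e-05). The call against ESC did not hold without Phc1-KO 2 (edgeR adjusted p = 0.0600), without ESC 1 (0.122) or without ESC 2 (0.155).

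Lef1 is a lymphoid marker too. Of the other markers of lymphoid cells, Cd3e was at 1.10 and 0.774 CPM in Phc1-KO, 0 in NPC, and 0.555 and 0.304 CPM in ESC. Rag1 reached at most 0.526 CPM in any library. Summed over all 6 lymphoid markers, Lef1 and Tcf7 included, the level was 75.1 and 61.6 CPM in Phc1-KO, 11.6 and 15.9 CPM in NPC, and 70.1 and 68.7 CPM in ESC. Most of that sum was Lef1 and Tcf7 themselves in every group, so it does not measure lymphoid cells apart from them. The part of such cells in the level of Lef1 was not tested.

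Zic2 and Zic5 encode zinc finger factors and lie side by side, transcribed away from each other with starts 9705 bp apart. Zic2 (ENSMUSG00000061524; mm9 chr14:122874604-122879074, plus strand) binds enhancers in the epiblast and is needed for forebrain midline development. It was measured at 48.7 and 50.3 CPM in Phc1-KO, 14.7 and 16.0 CPM in NPC, and 33.1 and 33.2 CPM in ESC. The groups did not overlap. Zic2 was 1.49-fold higher in Phc1-KO than in ESC, a log2 fold change of 0.58 (SE 0.14, 95% interval 0.24 to 0.91, edgeR adjusted p = 0.0469). NPC over ESC gave -1.11 (SE 0.15, edgeR adjusted p = 0.000664) and Phc1-KO over NPC gave 1.68 (SE 0.15, edgeR adjusted p = 0.000112). The call against ESC lies at the threshold: edgeR adjusted p was 0.0528 with upper-quartile scaling, 0.0652 with total-count scaling and 0.0816 with no filter. It was also lost on leaving out any single Phc1-KO or ESC library, with values from 0.0668 to 0.405.

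Zic5 (ENSMUSG00000041703; mm9 chr14:122856017-122864899, minus strand) acts in neural tube and neural crest development. Its levels were 31.8 and 24.1 CPM in Phc1-KO, 5.85 and 7.60 CPM in NPC, and 19.6 and 20.7 CPM in ESC. The 3 pairs did not overlap. Phc1-KO over ESC gave a log2 fold change of 0.47 (SE 0.21, 95% interval -0.03 to 0.97, edgeR adjusted p = 0.192), so a difference from ESC was not called. NPC over ESC gave -1.58 (SE 0.23, edgeR adjusted p = 0.000934), and Phc1-KO over NPC gave 2.06 (SE 0.23, edgeR adjusted p = 0.000281). The noncoding gene 2610035F20Rik, which starts 1803 bp from Zic2 on the strand of Zic5, was at 3.09 and 3.92 CPM in Phc1-KO, 1.84 and 1.62 CPM in NPC, and 1.60 and 2.19 CPM in ESC. Its log2 fold change was 1.01 for Phc1-KO over NPC (SE 0.31, edgeR adjusted p = 0.0230) and 0.88 for Phc1-KO over ESC (edgeR adjusted p = 0.109). For NPC over ESC it was -0.13 (edgeR adjusted p = 0.743), where both Zic genes were lower.

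Sall2 encodes a spalt-like zinc finger factor of the early embryo and the nervous system (ENSMUSG00000049532; mm9 chr14:52930847-52948437, minus strand). It had 43.6 and 39.4 CPM in Phc1-KO, 88.6 and 57.0 CPM in NPC, and 17.6 and 16.7 CPM in ESC. Among the 8 genes it was the one with its highest level in NPC, and the groups did not overlap. Sall2 was 2.42-fold higher in Phc1-KO than in ESC, a log2 fold change of 1.27 (SE 0.22, 95% interval 0.74 to 1.80, edgeR adjusted p = 0.0194). NPC over ESC gave 2.08 (SE 0.23, edgeR adjusted p = 0.000304), a 4.24-fold increase. Phc1-KO was lower than NPC, with a log2 fold change of -0.81 (SE 0.22, edgeR adjusted p = 0.0141). The call against ESC was lost without either Phc1-KO library (edgeR adjusted p = 0.0758 and 0.104) or either ESC library (0.153 and 0.171). Against NPC it was lost without Phc1-KO 1 (0.0632) or Phc1-KO 2 (0.102).

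Pou3f1 encodes the POU factor Oct6 of the late epiblast (ENSMUSG00000078236; mm9 chr4:124334896-124337899, plus strand). Its raw counts were 7 and 22 in Phc1-KO, 5 and 1 in NPC, and 10 and 7 in ESC. These do not measure the gene, because 3003 of its 3004 exon bases are shared on the same strand with a second Ensembl ID of that symbol, a pseudogene record at chr4:124334889-124337899 that had 0 counts in every library. Reads that match both IDs go to neither when ambiguous reads are left out. The log2 fold change was 0.47 for Phc1-KO over ESC (SE 0.65, edgeR adjusted p = 0.673) and -1.38 for NPC over ESC (SE 0.85, edgeR adjusted p = 0.197). For Phc1-KO over NPC it was 1.84 (SE 0.79, edgeR adjusted p = 0.0760). No exon of Fgf5, Otx2, Lef1, Sall2, Zic2 or Zic5 was shared with another gene on either strand, and 3.8% of the Foxd3 exon bases were shared, with a miRNA record.

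Set side by side, 4 of the 8 genes were called between Phc1-KO and ESC, where 10.7% of all genes tested were. These were Foxd3, Lef1, Sall2 and Zic2, all higher in Phc1-KO, against 4.91% of all genes. No member was lower by edgeR, where 5.75% of all genes were. None was lower at an unadjusted p under 0.05, or by DESeq2, which called 1165 genes lower. The median log2 fold change of the 8 was 0.52, against 0.00 over all genes tested. Between NPC and ESC, where 61.3% of all genes were called, Fgf5, Otx2, Foxd3, Lef1, Zic2 and Zic5 fell and Sall2 rose, so 6 of 8 were lower where 30.9% of all genes were, and 1 was higher where 30.4% were. The median was -1.48, against -0.01 over all genes. Phc1-KO over NPC, where 64.9% of all genes were called, gave 6 members higher, against 32.3% of all genes, and 1 lower, against 32.7%, with a median of 1.95. The count for Phc1-KO over ESC stood above its background share. Because the members were chosen with earlier results of these data known, that excess is a description and not a test. The 7 of 8 called in each comparison with NPC stood beside shares of 61.3% and 64.9%. The counts out of 8 and the medians include Pou3f1, whose counts do not measure the gene and which was not called in any comparison. The 3 comparisons share libraries and are not independent of each other. Without ESC 1, without ESC 2 or without Phc1-KO 2, 0 of the 4 calls of Phc1-KO over ESC were made, and without Phc1-KO 1 the 2 for Foxd3 and Lef1 were; over all genes the higher calls were 46, 32, 81 and 672 in those fits. Because the ESC pair differed so little, it was also counted as 1 library, and then 0 of the 4 calls were made.

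**Figure D2:**
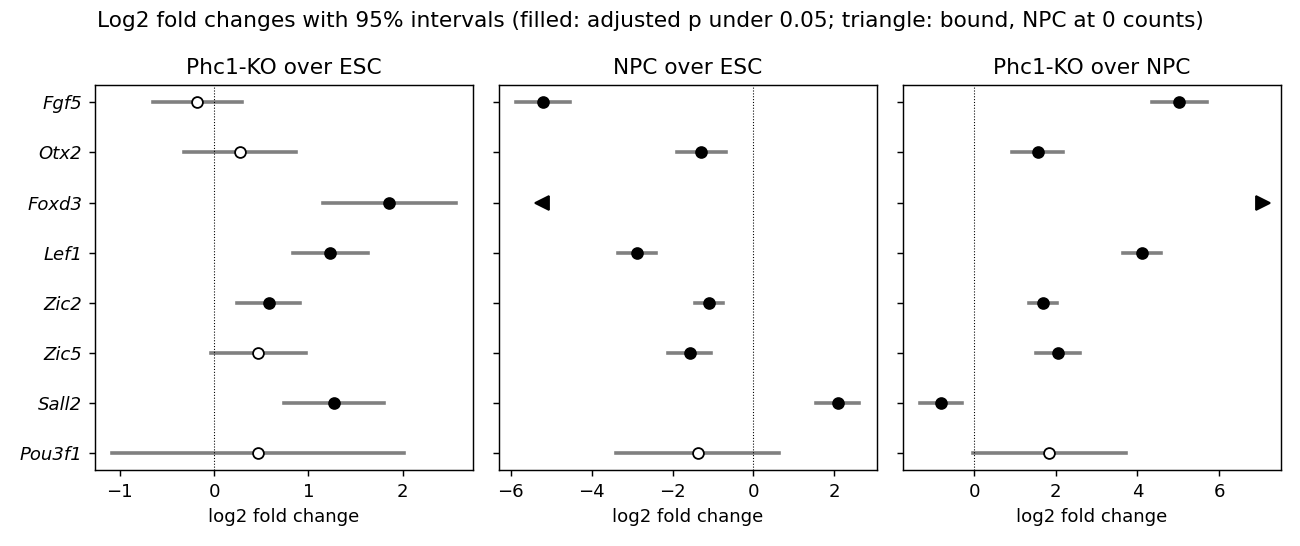
Log2 fold changes of the 8 genes for Phc1-KO over ESC, NPC over ESC and Phc1-KO over NPC, each panel on its own axis, with lines for 95% intervals and filled points for an adjusted p under 0.05. For Foxd3 against NPC, which had 0 counts, a triangle marks the bound of at least 37.2-fold lower in NPC than in ESC and at least 135.5-fold higher in Phc1-KO than in NPC.

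Levels were compared between genes as CPM per kilobase of exon. In Phc1-KO the order was Otx2 at 13.3 ± 5.02 CPM per kb, Zic2 at 11.8 ± 0.263, Sall2 at 7.64 ± 0.546, Fgf5 at 6.04 ± 0.956, Zic5 at 5.73 ± 1.11, Foxd3 at 5.56 ± 1.40 and Lef1 at 4.58 ± 0.368 (SD, n = 2). Neighbours in this order whose libraries overlapped were Otx2 and Zic2, Fgf5 and Zic5, Zic5 and Foxd3, and Foxd3 and Lef1. Pou3f1 came last in Phc1-KO and ESC and last of the genes with counts in NPC, with the limit on its counts given above. In NPC, Sall2 led at 13.4 ± 4.12 CPM per kb, followed by Otx2 at 4.49 ± 0.244, Zic2 at 3.68 ± 0.221, Zic5 at 1.38 ± 0.252, Lef1 at 0.264 ± 0.00237 and Fgf5 at 0.183 ± 0.00164. In ESC, Otx2 led at 11.0 ± 0.0841 CPM per kb, followed by Zic2 at 7.92 ± 0.0156, Fgf5 at 6.83 ± 0.280, Zic5 at 4.13 ± 0.163, Sall2 at 3.16 ± 0.119, Lef1 at 1.94 ± 0.154 and Foxd3 at 1.54 ± 0.00323. Foxd3 was above 54.1% of 17439 genes in Phc1-KO and above 30.3% of them in ESC. Sall2 was above 60.5% of them in Phc1-KO, 72.0% in NPC and 42.4% in ESC. With the longest transcript as the length, Lef1 came to 10.8 CPM per kb in Phc1-KO, 0.626 in NPC and 4.60 in ESC, which put it above Zic5 and Sall2 in ESC, and below only Otx2 and Zic2 in Phc1-KO.

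Close relatives of the members were examined family by family. Of 21 listed relatives 17 were tested, since Crx, Foxd2, Foxd4 and Fgf6 had too few counts. Between NPC and ESC, 8 of the 17 rose and 8 fell, where 30.4% of all genes tested were higher and 30.9% lower. Between Phc1-KO and ESC, 4 rose, namely Zic1, Zic4, Fgf4 and Fgf15, and 2 fell, Foxd1 and Fgf8. There 4.91% of all genes tested were higher and 5.75% lower. The counts of the lists below stand beside these same shares. Calls of Phc1-KO over ESC over all genes rose in both directions without either NPC library, and fell without any ESC or Phc1-KO library. The median log2 fold change of the 17 was 0.50 for Phc1-KO over ESC and -0.70 for NPC over ESC. None of those 6 calls was made without ESC 1, without ESC 2 or without Phc1-KO 2.

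In the Zic family, Zic1 was at 3.82 and 4.21 CPM in Phc1-KO, 34.5 and 50.5 CPM in NPC, and 0.925 and 0.791 CPM in ESC. It was highest in NPC, the reverse of Zic2 and Zic5. Its log2 fold change was 5.62 for NPC over ESC (SE 0.30, edgeR adjusted p = 2.01e-05) and 2.22 for Phc1-KO over ESC (SE 0.30, edgeR adjusted p = 0.00982). Zic4, the divergent neighbour of Zic1, was at 0.995 and 0.726 CPM in Phc1-KO, 5.66 and 9.09 CPM in NPC, and 0.123 and 0.0608 CPM in ESC. Over ESC, where it had few counts, the ratio for Zic4 was 9.31 in Phc1-KO (95% counting interval 2.93 to 47.4, edgeR adjusted p = 0.0275) and 80.4 in NPC (27.2 to 392.6, edgeR adjusted p = 0.000111).

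Among the spalt-like genes, Sall4, a core pluripotency factor, was at 327.8 and 200.8 CPM in Phc1-KO, 0.855 and 0.909 CPM in NPC, and 256.8 and 242.7 CPM in ESC. Sall1 was at 198.3 and 149.4 CPM in Phc1-KO, 57.7 and 30.5 CPM in NPC, and 118.2 and 114.1 CPM in ESC. Both fell in NPC, with log2 fold changes over ESC of -8.13 for Sall4 (edgeR adjusted p = 8.77e-06) and -1.40 for Sall1 (edgeR adjusted p = 0.00520). Neither was called in Phc1-KO over ESC, at 0.08 for Sall4 (edgeR adjusted p = 0.836) and 0.58 for Sall1 (edgeR adjusted p = 0.225). Sall3 rose in NPC like Sall2, at 90.5 and 25.1 CPM in NPC against 4.01 and 4.74 CPM in ESC, a log2 fold change of 3.72 (SE 0.68, edgeR adjusted p = 0.00286).

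Otx1, the paralog of Otx2, was at 0.576 and 0.677 CPM in Phc1-KO, 3.22 and 2.47 CPM in NPC, and 0.0617 and 0.304 CPM in ESC, and rose in NPC by 3.90 on the log2 scale (SE 0.54, edgeR adjusted p = 0.000817). The POU genes Pou3f2, Pou3f3 and Pou3f4, all of neural progenitors, also rose in NPC over ESC, with log2 fold changes of 5.99, 8.24 and 5.83. Pou3f3 reached 95.6 and 38.6 CPM in NPC, against 0.370 and 0.0608 CPM in ESC. In Phc1-KO these 3 were at or below 1.20 CPM and none passed edgeR's test against ESC. Pou3f3 had a log2 fold change of 2.20 there (95% interval 0.04 to 4.35, edgeR adjusted p = 0.164).

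Of the other TCF factors, Tcf7 had 31.6 and 22.7 CPM in Phc1-KO, 8.48 and 12.7 CPM in NPC, and 51.3 and 51.8 CPM in ESC. Its log2 fold change was -2.28 for NPC over ESC (SE 0.25, edgeR adjusted p = 0.000320) and -0.93 for Phc1-KO over ESC (SE 0.24, edgeR adjusted p = 0.0534), where Lef1 was higher. Tcf7l2 rose in NPC by 2.61 on the log2 scale (SE 0.29, edgeR adjusted p = 0.000316), and for Phc1-KO over ESC gave -0.10 (edgeR adjusted p = 0.845). Tcf7l1, a repressor of naive genes, gave 0.25 for Phc1-KO over ESC (edgeR adjusted p = 0.639) and -0.70 for NPC over ESC (edgeR adjusted p = 0.0985).

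Among FGF ligands, Fgf4, made by naive and formative cells, was at 207.3 and 242.8 CPM in Phc1-KO, 0.0658 and 0.0649 CPM in NPC, and 145.4 and 142.8 CPM in ESC. It rose in Phc1-KO over ESC by 0.64 on the log2 scale (SE 0.13, edgeR adjusted p = 0.0270). In NPC it was lower than in ESC by a ratio of 2205.2 (95% counting interval 610.1 to 18214.1). Fgf15 was at 15.6 and 15.1 CPM in Phc1-KO, 0.263 and 0.0649 CPM in NPC, and 7.34 and 7.36 CPM in ESC, and its log2 fold change for Phc1-KO over ESC was 1.06 (SE 0.27, edgeR adjusted p = 0.0495). Fgf8, a ligand of the primitive streak, was at 3.67 and 1.84 CPM in Phc1-KO, 0.0658 and 0.130 CPM in NPC, and 15.5 and 13.6 CPM in ESC. It fell in Phc1-KO over ESC by 2.41 on the log2 scale (SE 0.36, edgeR adjusted p = 0.0117). Foxd1, a relative of Foxd3, was at 0.314 and 0.290 CPM in Phc1-KO, 1.18 and 1.04 CPM in NPC, and 2.71 and 2.01 CPM in ESC, with a log2 fold change of -2.94 for Phc1-KO over ESC (SE 0.37, edgeR adjusted p = 0.00820).

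**Figure D3:**
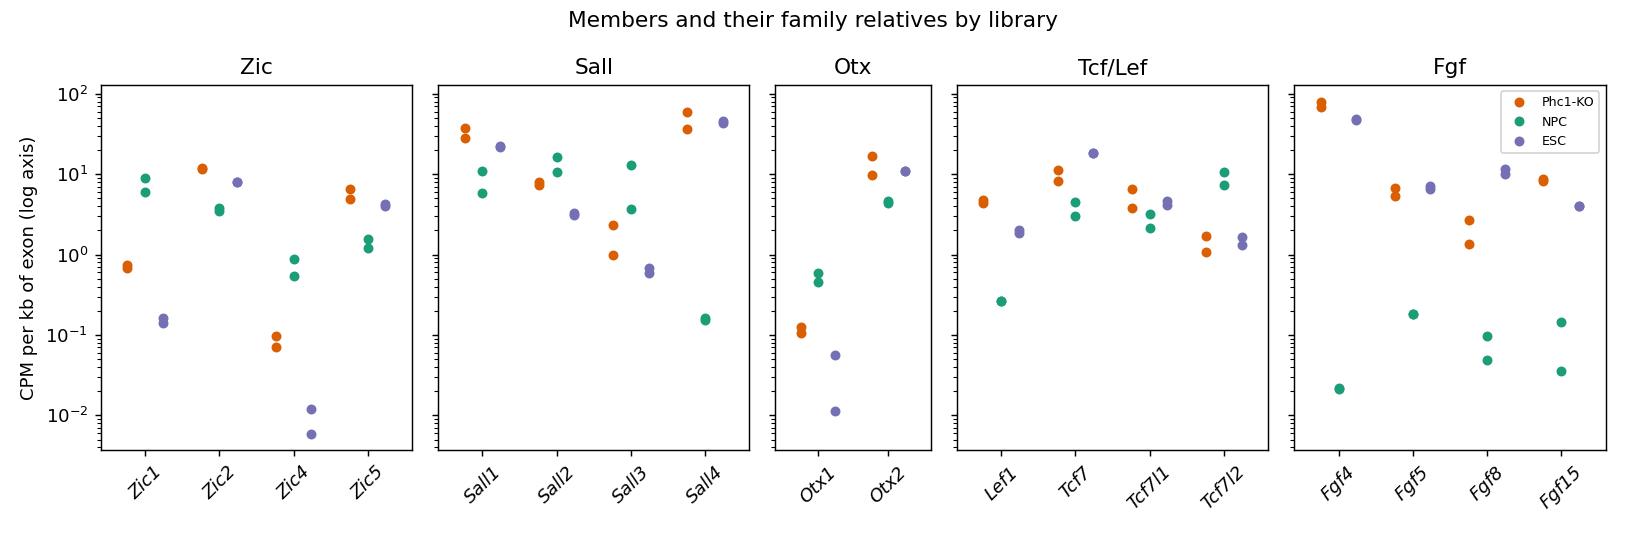
CPM per kb of exon, on a log axis, for genes of the Zic, Sall, Otx, Tcf/Lef and Fgf families in the 2 Phc1-KO, 2 NPC and 2 ESC libraries, with 1 point per library. Zic1, Zic4, Sall2, Sall3, Otx1 and Tcf7l2 were highest in NPC, whereas the other members and relatives plotted were lowest there.

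Other genes of the formative and primed states gave a different count from the 8. Of 27 tested, 2 rose in Phc1-KO over ESC, Dnmt3a and Lefty1, and 4 fell, Cldn3, Cldn6, Fst and Krt18, with a median log2 fold change of 0.12. Dnmt3a, a de novo DNA methyltransferase, was at 417.2 and 422.3 CPM in Phc1-KO, 285.9 and 330.6 CPM in NPC, and 146.8 and 144.7 CPM in ESC. Its log2 fold change for Phc1-KO over ESC was 1.53 (SE 0.13, edgeR adjusted p = 0.00244). Lefty1, a Nodal inhibitor, was at 335.9 and 470.6 CPM in Phc1-KO, 0.855 and 0.974 CPM in NPC, and 134.1 and 129.2 CPM in ESC, a log2 fold change of 1.61 for Phc1-KO over ESC (edgeR adjusted p = 0.00576). The epithelial genes Cldn3 and Krt18 fell in Phc1-KO over ESC by 2.02 and 1.76 on the log2 scale (edgeR adjusted p = 0.0154 and 0.00508), and the activin inhibitor Fst by 1.75 (edgeR adjusted p = 0.00728). Dnmt3b, the partner enzyme of Dnmt3a, gave 0.52 (SE 0.16, edgeR adjusted p = 0.0864), at 540.2 and 688.0 CPM in Phc1-KO against 427.6 and 426.1 CPM in ESC. Over ESC, NPC showed 5 of the 27 higher and 17 lower, with a median of -3.29. For Phc1-KO over ESC, leaving out ESC 1 left 1 call in each direction, ESC 2 left 0 in each, Phc1-KO 1 left 2 in each, and Phc1-KO 2 left 2 higher and 1 lower.

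Naive genes were counted beside them. Of 15 tested, 4 fell in Phc1-KO over ESC and 1 rose, with a median log2 fold change of -0.77. Those that fell were Nanog, Tfcp2l1, Dppa3 and Tcl1, and Nr0b1 rose. Nanog was at 136.5 and 112.0 CPM in Phc1-KO, 0.329 and 0.584 CPM in NPC, and 218.5 and 223.2 CPM in ESC, a log2 fold change of -0.83 for Phc1-KO over ESC (SE 0.16, edgeR adjusted p = 0.0245). Tfcp2l1 gave -1.76 (SE 0.22, edgeR adjusted p = 0.00739) and Dppa3 -2.63 (SE 0.35, edgeR adjusted p = 0.0119). Esrrb gave -0.79 (edgeR adjusted p = 0.0926) and Klf2 -0.77 (edgeR adjusted p = 0.157). All 15 fell in NPC over ESC. Without ESC 1 or ESC 2, 0 of these 15 were lower in Phc1-KO than in ESC, without Phc1-KO 2 it was 1, and without either NPC library 9. Nr0b1 was not called without ESC 1, ESC 2 or Phc1-KO 2.

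Of 10 core pluripotency genes, which are shared by the naive and primed states, 1 rose in Phc1-KO over ESC by edgeR, with 5 higher at an unadjusted p under 0.05 and 3 by DESeq2. None fell by edgeR, at an unadjusted p under 0.05 or by DESeq2. Dppa2 was the gene that rose, at 44.3 and 39.8 CPM in Phc1-KO, 0.132 and 0.0649 CPM in NPC, and 12.6 and 14.4 CPM in ESC (log2 fold change over ESC 1.64, edgeR adjusted p = 0.00597). Pou5f1 gave 0.62 (SE 0.18, edgeR adjusted p = 0.0701) and Sox2 -0.30 (SE 0.18, edgeR adjusted p = 0.308). The number that rose was 0 without ESC 1, ESC 2 or Phc1-KO 2, 2 without Phc1-KO 1, and 5 without either NPC library. In NPC over ESC all 10 fell, including Sox2, a gene that neural progenitors also use, with a log2 fold change of -1.97 (SE 0.19, edgeR adjusted p = 0.000174).

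**Figure D4:**
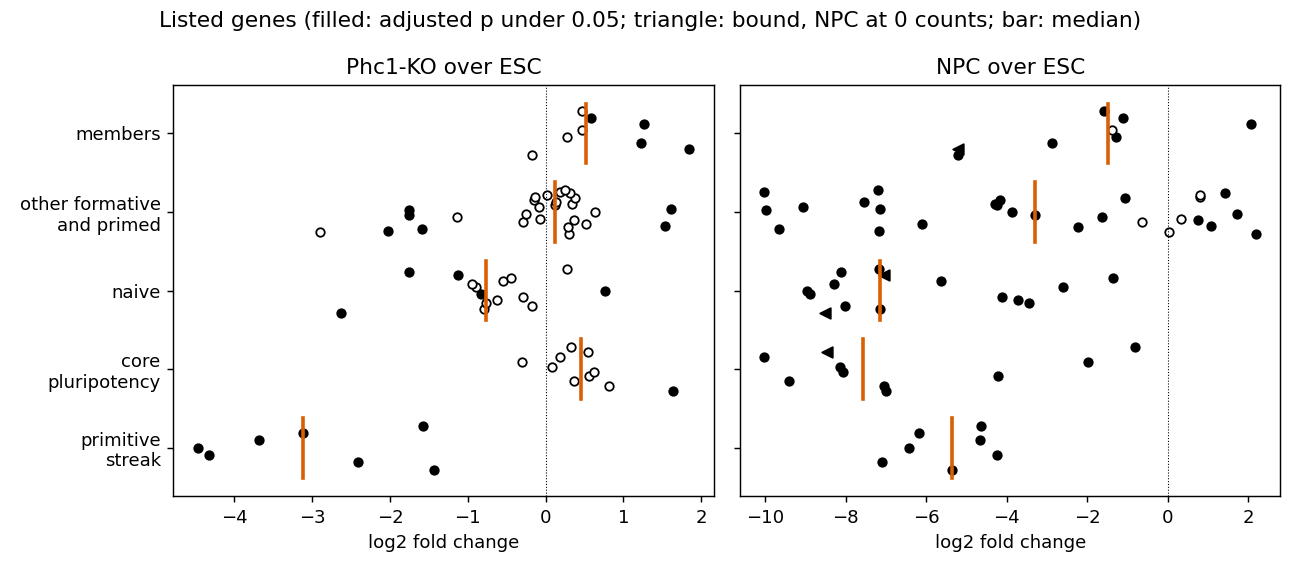
Log2 fold changes of the 8 members and of the tested genes of 4 other lists, for Phc1-KO over ESC and NPC over ESC, with filled symbols for an adjusted p under 0.05, triangles for bounds where NPC had 0 counts, and a bar at the median. For Phc1-KO over ESC the medians were 0.52 for the members, 0.12 for other formative and primed genes, -0.77 for naive genes, 0.45 for core pluripotency genes and -3.12 for primitive streak markers.

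Receptors and targets of FGF signalling, through which Fgf5 acts, rose in NPC in 11 of 17 cases and fell in 2, with a median log2 fold change of 1.40. The receptor Fgfr1 was at 115.8 and 68.6 CPM in Phc1-KO, 234.3 and 202.7 CPM in NPC, and 84.5 and 81.0 CPM in ESC, a log2 fold change of 1.40 for NPC over ESC (SE 0.24, edgeR adjusted p = 0.00214). Fgf5 itself was lower there. In Phc1-KO over ESC, 2 of the 17 rose, the transcription factor Etv1 by 1.23 (edgeR adjusted p = 0.0425) and the feedback inhibitor Spry2 by 0.79 on the log2 scale (edgeR adjusted p = 0.0224). None fell by edgeR or DESeq2, and 2 did at an unadjusted p under 0.05. Neither of the 2 higher calls was made when any 1 Phc1-KO or ESC library was left out, and without either NPC library 4 were higher and 2 lower.

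Partners and targets of Lef1 in Wnt signalling showed 6 of 16 lower and 2 higher in Phc1-KO than in ESC, with a median log2 fold change of -0.70, where Lef1 was higher. Axin2, a feedback target of beta-catenin, was at 9.53 and 6.05 CPM in Phc1-KO, 36.4 and 46.8 CPM in NPC, and 27.9 and 25.9 CPM in ESC. It fell in Phc1-KO over ESC by 1.79 on the log2 scale (SE 0.26, edgeR adjusted p = 0.0105). Sp5 was at 1.83 and 1.50 CPM in Phc1-KO, 1.12 and 0.714 CPM in NPC, and 16.2 and 15.3 CPM in ESC, a log2 fold change of -3.24 for Phc1-KO over ESC (SE 0.28, edgeR adjusted p = 0.00291). T, the brachyury gene, gave -3.12 (SE 0.34, edgeR adjusted p = 0.00571), Cdx2 gave -2.55 (SE 0.31, edgeR adjusted p = 0.00979), and Ctnnb1, which encodes beta-catenin, gave 0.15 (SE 0.13, edgeR adjusted p = 0.499). The inhibitor Notum rose, at 10.9 and 15.6 CPM in Phc1-KO against 5.43 and 4.93 CPM in ESC (log2 fold change 1.36, edgeR adjusted p = 0.0247); it is named because it was 1 of 2, after its value was seen. The other was the corepressor Tle4. Lower calls for Phc1-KO over ESC numbered 2 without ESC 1 or ESC 2, 0 without Phc1-KO 2, 5 without Phc1-KO 1 and 8 without either NPC library; higher calls were 0, 0, 1 and 3 in those fits. In NPC over ESC, 9 of the 16 fell and 4 rose.

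Markers of other cell types moved with some of these results. Of 7 primitive streak markers tested, 7 fell in Phc1-KO over ESC. The sums over 8 markers were 23.9 and 20.1 CPM in Phc1-KO, 3.29 and 1.56 CPM in NPC, and 123.9 and 121.1 CPM in ESC. This list shares genes with those above: T was also counted among the Wnt targets and Fgf8 among the family relatives. Of 7 macrophage markers tested, 5 fell in Phc1-KO over ESC, with sums of 26.8 and 20.2 CPM in Phc1-KO, 5.72 and 7.79 CPM in NPC, and 135.1 and 136.0 CPM in ESC. Most of the ESC sum was Lyz2, at a mean of 101.3 CPM there and 9.20 CPM in Phc1-KO. Cd68 and Itgam were not called between them. Of 15 fibroblast markers, which would show feeder cells, 8 rose in Phc1-KO over ESC. The sum over all 15 was 2972.9 and 1771.0 CPM in Phc1-KO, 8979.4 and 13739.1 CPM in NPC, and 3324.4 and 3218.2 CPM in ESC. Its largest part in Phc1-KO and ESC was Fn1, at means of 1233.7 CPM and 2737.0 CPM, a gene not called between them. The sum therefore does not show the direction of the other markers. Without ESC 1 or ESC 2, 3 streak, 2 macrophage and 3 fibroblast markers were still called in these directions, and without Phc1-KO 2 it was 0, 1 and 3. Every one of these fibroblast and macrophage markers had counts in every Phc1-KO and ESC library. Of 12 neural progenitor markers, 1 rose in Phc1-KO over ESC by edgeR, Pax6, with 4 higher at an unadjusted p under 0.05 and 3 by DESeq2. All 12 rose in NPC over ESC. Summed, the 12 reached 950.8 and 734.6 CPM in Phc1-KO, 5468.7 and 3155.0 CPM in NPC, and 617.0 and 618.1 CPM in ESC. Vim made the largest part of that sum in Phc1-KO and ESC, at means of 646.0 CPM and 403.3 CPM, and was not called between them. Here too the sum does not show the direction of the other markers. The ratio of reads outside genes to reads in genes was 1.08 in Phc1-KO 1 and 0.661 in Phc1-KO 2, 1.03 and 1.09 in NPC, and 0.839 and 0.851 in ESC. The part of these cell types and of read composition in the members' values was not tested.

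The genes whose pattern over the 6 libraries was nearest to each member were found by the root mean square difference of log2 CPM, each gene centred on its own mean, among 14335 genes. For Fgf5 the nearest was Stxbp2, at a difference of 0.09, followed by Slco4a1 at 0.13 and Arhgap9 at 0.14. Stxbp2 averaged 46.8 CPM in Phc1-KO, 1.54 CPM in NPC and 56.7 CPM in ESC. For Foxd3 it was Zfp600 at 0.11, which averaged 21.6 CPM in Phc1-KO, 0.0653 CPM in NPC and 6.15 CPM in ESC, then Syce1 at 0.25 and Spink3 at 0.30. For Lef1 it was Timp1 at 0.10, averaging 108.3 CPM in Phc1-KO, 6.93 CPM in NPC and 43.6 CPM in ESC. Otx2 was nearest to Hist1h2bc at 0.04, Snrpd2 at 0.06 and U2af1 at 0.07. Zic2 had 3 genes at 0.05, Klhdc4, Dbr1 and Smpd4. Zic5 was nearest to Zfp57 at 0.11, Trpv2 at 0.11 and Lmod1 at 0.13, and Sall2 to Lrrk2 at 0.15, Chpf2 at 0.19 and Lgr6 at 0.20. By Pearson's r in place of the difference, Stxbp2, Hist1h2bc, Zfp600, Syce1 and Timp1 were again among the 3 nearest, and the others were not. With 3 group levels spread over 6 libraries, many genes match a pattern this closely, and no function is read from it.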

How the data were processed

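RNA was measured in 6 libraries by sequencing 50-base single-end reads after ribosomal RNA was depleted with Ribo-Zero Gold, per the labels. The authors deposited raw counts for each Ensembl gene, made with STAR and HTSeq on mm9, per the submitters' processing notes; versions, the annotation's release and how strand was set were not stated in the sources used here. The 5 tallies of reads given to no gene were left out: reads outside genes numbered 0.661 to 1.09 per read in a gene, and ambiguous reads were 3.23% to 3.82% of those in genes or ambiguous. Of 155 genes lying wholly under exons of the opposite strand, 1 had 10 or more counts, so counts appear blind to strand.

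Symbols, positions and exon lengths came from GENCODE M1 on mm9, which named 37205 of 37620 genes. CPM are counts over TMM-scaled library sizes. Differential expression was tested with edgeR 4.0.16 in R 4.3.3 (quasi-likelihood F test, 3 groups of 2 libraries fitted together, 3 residual degrees of freedom). The filterByExpr minimum was 10 for the count and 15 for the total. Benjamini-Hochberg adjustment ran over the 17489 genes of each comparison, with a threshold of 0.05. The SE is the log2 fold change over the square root of F. A group at 0 counts was set to a floor of 3 counts over both libraries; for 1 to 3 counts a ratio has an exact 95% interval. Both cover counting error only.

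The members and all gene lists were chosen with earlier results of these data known. Named genes were the members, their family relatives, neighbours starting within 5000 bp, the 3 nearest genes by pattern and, per list, the first 3 as written and the 3 largest changes that passed; others were named after their values were seen, and a few genes that the rule names are not reported here. The script was tested on simulated data. Alternatives included DESeq2 1.42.0 and limma-voom (limma 3.58.1); figures used matplotlib 3.10.9. Same-numbered libraries did not deviate together (correlations -0.02 to 0.02).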

Additional observations from a re-analysis of the deposited data

How the results depend on the processing

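Under 18 alternatives no called log2 fold change of a member or of Phc1 reversed: 37 values lost the call. Among those not called, Phc1-KO over ESC changed sign without Phc1-KO 2 for Otx2, to -0.17, and for Pou3f1, to -0.50. Against a 2-fold change, calls numbered 2629 higher and 2584 lower for NPC over ESC, 83 and 95 for Phc1-KO over ESC, and 2827 and 2952 for Phc1-KO over NPC, and the members called were 0 higher for Phc1-KO over ESC and 0 lower for Phc1-KO over NPC. For Phc1-KO over ESC, where 858 genes were higher and 1006 lower, DESeq2 gave 1375 higher, a fit of these groups alone 1791 higher and 2108 lower, and ESC counted as 1 library 62 higher and 83 lower with 0 members higher. Leaving out each library gave 32 to 1757 higher and 57 to 1958 lower, and 0 to 4 members higher; for Phc1-KO over NPC it gave 0 to 1 members lower. Over all genes, calls of Phc1-KO over ESC rose without either NPC library and fell without any ESC or Phc1-KO library. The groups shared an estimate of the spread in these fits, and their pairs spread unequally (18.1% Phc1-KO, 27.5% NPC, 1.98% ESC). The cause of this range was not tested. With the replicate number as a block, 3 members were higher in Phc1-KO than in ESC, Zic2 being lost (edgeR adjusted p = 0.0773), and no other count of members moved; over all genes 636 were higher and 791 lower. For NPC over ESC, 6 lower and 1 higher were called in all alternatives except the 2-fold test, where Otx2 and Zic2 were lost and 4 were lower. Of 1512 counts over the other lists, 174 moved by over 1.5 times. Upper-quartile scaling moved the median of all genes for NPC over ESC to -0.11. In all 4 scalings 7 of 8 members were positive for Phc1-KO over ESC, among them Otx2 and Zic5, which were not called, and Pou3f1, whose counts do not measure the gene. A scaling shifts all genes nearly alike, here to medians of -0.08 to 0.03, and the smallest positive member value was 0.28 in the main fit. This count could therefore hardly change and does not check the result. With Foxd3 at 0 reads in NPC, depth sets only a bound there.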
